A study of Homo sapiens with 21 samples.

Results

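The response of gene expression to trametinib was compared between a YAP1 knockout line, YAPKO2, and a control line, sgCON, both made from NLF, a human cell line derived from a neuroblastoma. The quantity reported is a difference of differences on the log2 scale, namely trametinib minus DMSO in YAPKO2, minus trametinib minus DMSO in sgCON. A positive difference means a response that was higher in YAPKO2, and a negative difference one that was lower there. The comparison rests on 12 of the 21 RNA sequencing libraries of the series, which are 3 libraries of YAPKO2 with 20 nM trametinib, 3 of YAPKO2 with DMSO, 3 of sgCON with 20 nM trametinib and 3 of sgCON with DMSO. Trametinib or its solvent was given 24 h after plating and RNA was collected 72 h later. The labels of the samples give DMSO at 0.01%, whereas the series text has 0.1%. The series text describes sgCON as made with a Cas9 lentivirus that holds a scrambled guide RNA, and YAPKO2 as a line with YAP1 knocked out. Whether the knockout line is 1 clone or a pool is not given in the sources used here. A knockout line made with another YAP1 guide (YAPKO1, treated alike) is used below for a side comparison, and the parental NLF libraries enter the estimate of spread. The labels do not state that replicates came from separate cultures, and the p-values therefore rest on a spread between samples that could be technical only.

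YAP, the protein of YAP1, is a transcriptional coactivator that the Hippo kinases restrain and that acts on target genes through the TEAD factors. Trametinib inhibits the MEK kinases, which activate ERK, and ERK signalling in turn induces its own inhibitors (the DUSP phosphatases, SPRY and SPRED proteins) and the PEA3 transcription factors ETV4 and ETV5. E2F factors drive the genes of DNA replication when cells enter S phase, and many mitotic genes carry a promoter element, the cell cycle genes homology region (CHR), through which they are repressed in resting cells and switched on before division. Neuroblastoma arises from the sympathetic lineage, whose cells store granins and neuropeptides in dense-core vesicles.

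The guide sequences define the lines compared. The YAPKO2 guide, shown with its PAM in capitals, matched chromosome 11 at 102110997 to 102111016 on the minus strand (GRCh38), in exon 1 of YAP1, which is coding there in 7 of the 11 annotated transcripts. The scrambled guide of sgCON had 0 exact matches among annotated transcripts.
YAPKO2 guide: gtgcacgatctgatgcccggCGG
sgCON guide: gcactcacatcgctacatca

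The promoter stretches below belong to genes on which the results turn, and the capitals mark the motif searched. They come from RefSeq (GRCh38.p14), run 5′ to 3′ on the strand of the gene and end at or before the annotated start site. PCNA, GINS2 and TYMS are called replication genes whose promoter holds an E2F motif (TTTCCCGC or TTTGGCGC on either strand) before the start site. They have the 3 lowest response differences among such genes that were eligible for printing. Genes on the chromosome of MCM4 were not eligible. CENPA and SPC25 are the corresponding mitotic genes with a CHR motif (TTTGAA on either strand). CHGA and VGF are the neurosecretory genes with a cyclic AMP response element (CRE, TGACGTCA, its own reverse complement).
PCNA, chr20:5126634-5126721, minus strand: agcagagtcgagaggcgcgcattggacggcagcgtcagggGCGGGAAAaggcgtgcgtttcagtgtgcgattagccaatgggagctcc
GINS2, chr16:85688955-85689025, minus strand: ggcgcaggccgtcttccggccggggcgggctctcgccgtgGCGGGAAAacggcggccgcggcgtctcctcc
TYMS, chr18:657574-657652, plus strand: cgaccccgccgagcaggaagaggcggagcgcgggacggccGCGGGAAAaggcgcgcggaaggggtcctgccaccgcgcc
CENPA, chr2:26785998-26786055, plus strand: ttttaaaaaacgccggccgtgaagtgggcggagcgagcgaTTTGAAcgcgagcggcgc
SPC25, chr2:168890632-168890680, minus strand: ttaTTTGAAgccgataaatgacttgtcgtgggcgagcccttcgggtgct
CHGA, chr14:92923056-92923143, plus strand: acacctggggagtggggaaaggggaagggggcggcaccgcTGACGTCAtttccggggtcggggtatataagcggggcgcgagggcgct
VGF, chr7:101165601-101165688, minus strand: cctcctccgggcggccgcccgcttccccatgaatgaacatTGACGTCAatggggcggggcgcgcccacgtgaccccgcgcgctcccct

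Among the promoters from 250 bases before to 50 after the start site, the E2F motif stood in 34.8% of those of the replication genes measured (16 of 46 with a promoter sequence), against 3.72% of those of the genes tested (10029 with a sequence) and 2.31% of all 27305 promoters. The CHR motif stood in 65.6% of the promoters of the mitotic genes (40 of 61), against 9.51% of those of the genes tested and 15.4% of all. The CRE stood in 2 of 7 promoters of the neurosecretory genes, against 3.42% of those of the genes tested and 1.98% of all. Among the promoters of all 487 lower genes (348 with a sequence) the E2F motif stood in 12.1% and the CHR motif in 17.2%, against 1.44% and 8.65% of those of the higher genes (208 with a sequence). Among the members called lower, the E2F motif stood in 35.7% of the replication promoters (10 of 28) and the CHR motif in 57.1% of the mitotic ones (16 of 28). Both lists hold gene classes described above as driven by E2F or carrying the CHR. Their motif shares therefore describe the lists and not the response difference, and the 487 lower genes include their called members. A match describes these letters and not a bound site.

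Levels are FPKM, which are fragment numbers corrected for transcript length and library size by the authors, scaled here between libraries. The table holds no read counts, and the depth of the 21 libraries, estimated from the steps of low values, ran from 0.78 to 1.49 relative to their geometric mean. The markers of the labelled line were present, with HAND2 at 65.3 to 100.4 and MYCN at 40.3 to 131 FPKM over the 12 libraries, while TH reached at most 0.285 FPKM. GC content moved with the groups and, most widely, within YAPKO2 with trametinib. There the genes rich in GC stood above those poor in GC by a median log2 deviation of 0.71, 1.33 and -0.24, against 0.08, 0.59 and 0.15 in YAPKO2 with DMSO, -0.12, -0.27 and -0.14 in sgCON with trametinib and -0.39, -0.49 and -0.37 in sgCON with DMSO. Each library of the 4 groups was therefore left out in turn, and replicate 2 of both YAPKO2 groups together. In bulk RNA, fewer cells of a kind and less RNA per cell cannot be told apart.

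YAP1 RNA checked the labels. It stood at 2.73, 1.16 and 3.69 FPKM in YAPKO2 with trametinib and at 3.17, 2.69 and 2.81 with DMSO, against 22.7, 24.5 and 22.7 in sgCON with trametinib and 24.9, 24.2 and 27.7 with DMSO. Every YAPKO2 library lay below every sgCON library. The response difference of YAP1 itself was -0.13 ± 0.32 (log2 ± SE, limma adjusted p = 0.914).

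Of 16090 genes tested, 777 (4.83%) had a trametinib response that differed between YAPKO2 and sgCON at a limma adjusted p under 0.05, and 487 (3.03%) of these were lower in YAPKO2 and 290 (1.8%) higher. The difference was at least 2-fold in 344 of them, 177 lower and 167 higher. The median difference over all genes tested was -0.01. A total of 405 genes were called with each of the 12 libraries left out in turn, 270 lower and 135 higher. The count over all genes was 509 without sgCON DMSO replicate 2, 512 without YAPKO2 DMSO replicate 2 and 517 without sgCON trametinib replicate 2.

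Most of the lower genes fell with trametinib in YAPKO2 while their change in sgCON did not pass the test, which held for 407 of 487. A further 26 fell in both lines, 15 fell in YAPKO2 and rose in sgCON, and 20 rose in sgCON with no call in YAPKO2. Among the 290 higher genes, 197 rose in YAPKO2 with no call in sgCON, 50 fell in sgCON with no call in YAPKO2, 12 rose in YAPKO2 and fell in sgCON, 11 rose in both and 7 fell in both. With trametinib alone, 3231 genes (20.1%) changed in YAPKO2 and 840 (5.22%) in sgCON, a count that was 483 without sgCON trametinib replicate 1.

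**Figure D1:**
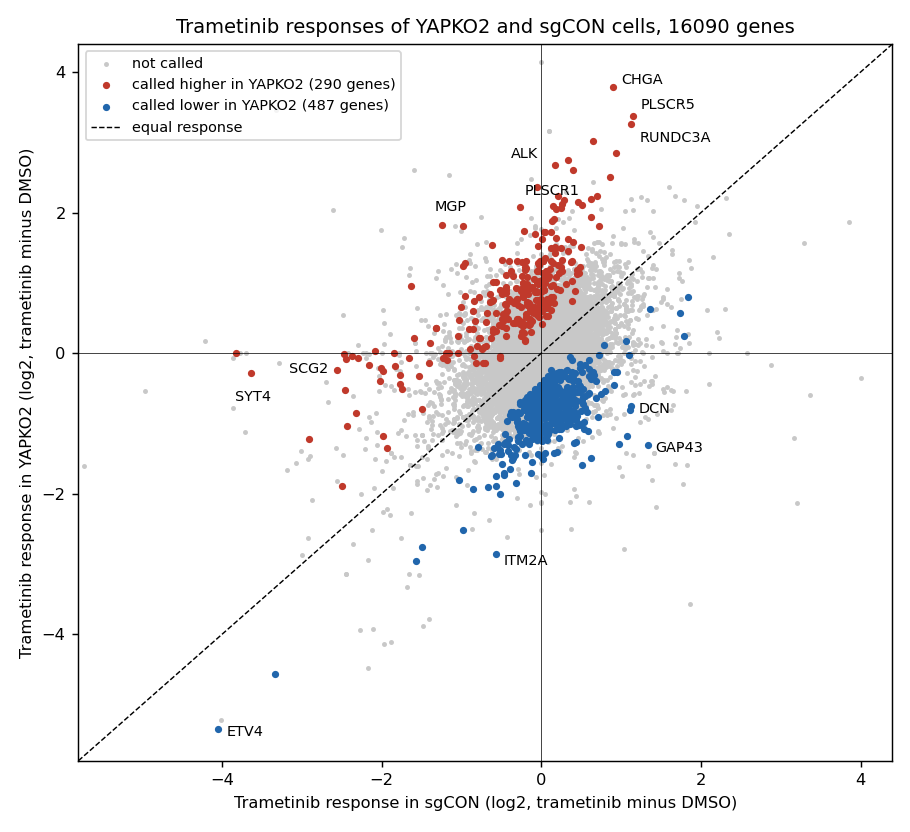
Trametinib response of each of 16090 genes in YAPKO2 (y axis, log2, trametinib minus DMSO) against that in sgCON (x axis, same unit), with genes called higher in YAPKO2 in red (290), called lower in blue (487) and the rest in grey. Most blue genes lie below 0 in YAPKO2 and near 0 in sgCON, whereas SYT4 and SCG2, among the red genes that fell in sgCON, lie near 0 in YAPKO2.

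The genes of DNA replication fell with trametinib in YAPKO2, while 1 of them passed the test in sgCON. Of 55 measured members, 34 had a lower response in YAPKO2 and 0 a higher one, against 3.03% and 1.8% of all genes, and all 55 differences were negative. The median difference was -0.88, made of a median response of -0.87 in YAPKO2 and 0.03 in sgCON. In YAPKO2 alone 45 members fell and 0 rose, against 11.5% and 8.59% of all genes, and in sgCON 0 fell and 1 rose, against 2.94% and 2.28%. With DMSO the lines were close, with a median of -0.02 for YAPKO2 minus sgCON. In trametinib that median was -0.84 and 49 members were lower in YAPKO2 (18.7% of all genes). Over all genes the lines differed in 5842 with trametinib (36.3%) and 4366 with DMSO (27.1%). Relative to the mean of sgCON with DMSO, the median level of the list was -0.75, -0.72 and -0.90 in the 3 YAPKO2 trametinib libraries and -0.04, 0.07 and -0.08 in those with DMSO. In sgCON it was 0.02, 0.08 and 0.09 with trametinib and lay between -0.01 and 0 with DMSO. For 41 of the 55 genes all 3 YAPKO2 trametinib libraries lay below the other 9 libraries, against 8% of all genes. The count of lower members ran from 27 to 37 with each library left out and was 32 without replicate 2 of both YAPKO2 groups.

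RRM1, the large subunit of ribonucleotide reductase, which makes deoxynucleotides, stood at 47.6, 47.9 and 62.5 FPKM in YAPKO2 with trametinib and at 96.5, 117 and 109 with DMSO. In sgCON it stood at 127, 119.9 and 121 with trametinib and 104, 99.0 and 94.9 with DMSO. Only the YAPKO2 trametinib libraries were low, and they did not overlap those of any other group. The response difference was -1.34 ± 0.16 (limma adjusted p = 0.000108).

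TK1, which salvages thymidine, had a difference of -1.22 ± 0.29 (limma adjusted p = 0.0187), a call lost with 2 of the 12 libraries left out in turn (adjusted p up to 0.0584 without YAPKO2 DMSO replicate 2). CLSPN, a mediator of the replication checkpoint, had the lowest estimate of the list at -1.35 ± 0.39, but its levels in YAPKO2 with trametinib spread over 5.88, 2.398 and 8.88 FPKM and it did not pass the test (limma adjusted p = 0.0595). Of the genes whose promoters are shown above, PCNA, the sliding clamp, averaged 113 ± 24.4 FPKM (SD, n = 3) in YAPKO2 with trametinib and 228 ± 5.95 with DMSO, against 324 ± 10.3 in sgCON with trametinib and 311 ± 13.7 with DMSO. The differences were -1.10 ± 0.17 for PCNA, -1.03 ± 0.18 for GINS2, a subunit of the replicative helicase complex, and -1.004 ± 0.12 for TYMS, thymidylate synthase (limma adjusted p = 0.00107, 0.00254 and 9.44e-05). All 6 subunits of the MCM helicase, MCM2 to MCM7, were among the 34 lower genes, with differences of -1.14 (MCM4) to -0.69 (MCM7); these were chosen after their values were seen.

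**Figure D2:**
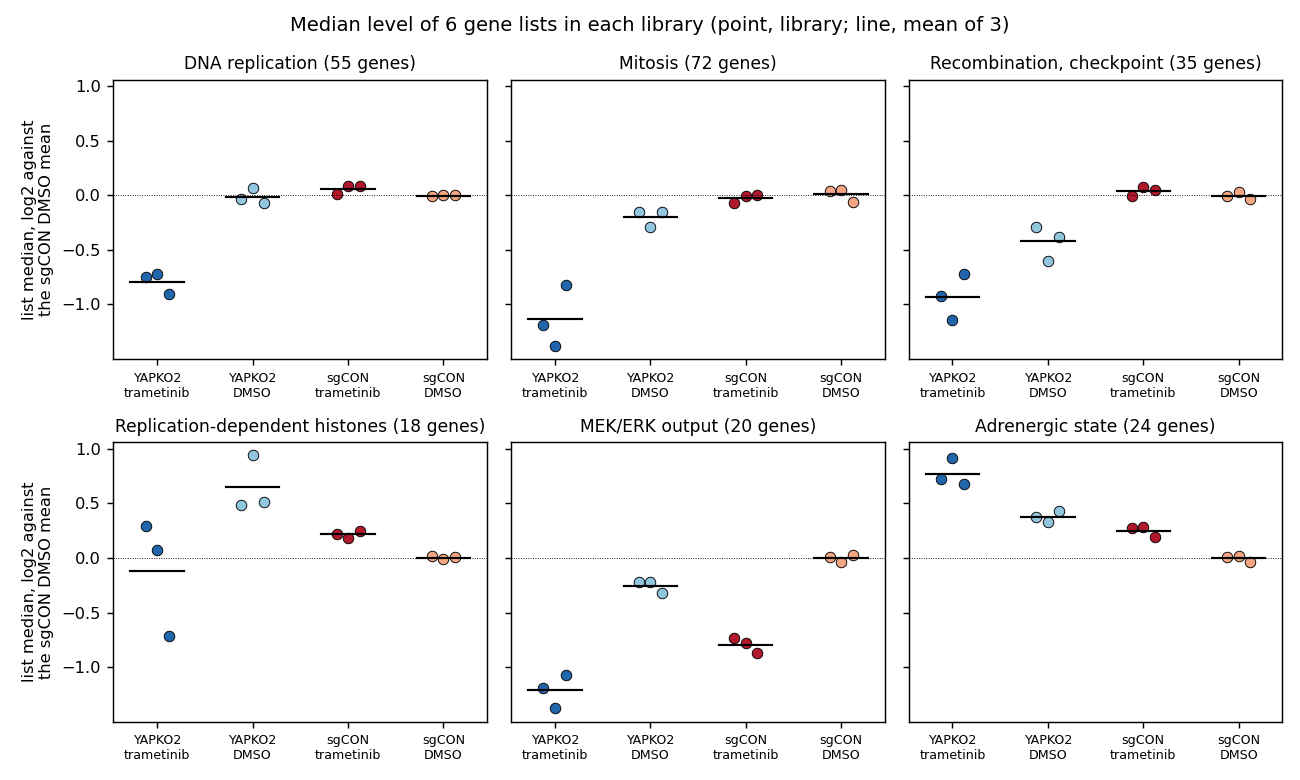
Median level of 6 gene lists in each library (points; y axis, log2 against the mean of sgCON with DMSO) for the 4 groups along the x axis, with a line at the mean of 3. The replication list stands at -0.75, -0.72 and -0.90 in the YAPKO2 trametinib libraries and near 0 elsewhere, whereas the MEK/ERK output list is low in both trametinib groups.

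Genes of mitosis and the spindle followed the same direction. Of 72 measured, 35 had a lower response in YAPKO2 and 0 a higher one, against 3.03% and 1.8% of all genes. The median difference was -0.91, with a median response of -0.84 in YAPKO2 and -0.02 in sgCON. FOXM1, the transcription factor that drives mitotic genes, stood at 26.3, 29.03 and 19.1 FPKM in YAPKO2 with trametinib and at 36.6, 43.9 and 35.3 with DMSO, against 37.1, 35.5 and 37.4 in sgCON with trametinib and 23.6, 22.1 and 22.3 with DMSO. It fell with trametinib in YAPKO2 (-0.64, limma adjusted p = 0.0054) and rose in sgCON (0.68, adjusted p = 0.0104), and sgCON with trametinib overlapped YAPKO2 with DMSO. Its difference was -1.32 ± 0.21 (limma adjusted p = 0.00107).

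CENPA, the histone variant of centromeres, stood at 13.8, 12.9 and 14.9 FPKM in YAPKO2 with trametinib and at 29.4, 29.6 and 36.7 with DMSO, against 24.1, 29.5 and 29.2 in sgCON with trametinib and 25.5, 23.8 and 29.1 with DMSO. The YAPKO2 trametinib libraries were the lowest 3 of the 12, and the difference was -1.24 ± 0.17 (limma adjusted p = 0.000287). MAD2L1, of the spindle checkpoint, had a difference of -1.24 ± 0.32 (limma adjusted p = 0.0333), a call lost with 10 of the 12 libraries left out in turn (adjusted p up to 0.0838 without YAPKO2 DMSO replicate 3). TOP2A, the topoisomerase that untangles sister chromosomes, did not pass the test (-1.26 ± 0.59, limma adjusted p = 0.295) and varied most within YAPKO2 with trametinib, at 32.5, 10.46 and 65.2 FPKM in replicates 1 to 3. SPC25, of the kinetochore, differed by -1.14 ± 0.24 (limma adjusted p = 0.0103). The count of lower mitotic genes ran from 27 to 40 with each library left out and was 30 without replicate 2 of both YAPKO2 groups.

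Of 23 E2F factors and cyclin E and A genes, 8 had a lower response in YAPKO2 and 0 a higher one. Over all genes the shares were 3.03% and 1.8%, and the median difference of the list was -0.63. E2F2, an activating E2F factor, stood at 14.7, 16.5 and 10.4 FPKM in YAPKO2 with trametinib and at 25.7, 29.4 and 24.8 with DMSO, against 18.7, 20.2 and 21.1 in sgCON with trametinib and 14.2, 16.3 and 16.8 with DMSO. It was high in YAPKO2 with DMSO and lowest in YAPKO2 with trametinib, where its range overlapped that of sgCON with DMSO, and it differed by -1.27 ± 0.20 (limma adjusted p = 0.000783). CDC25A, a phosphatase that activates the cyclin-dependent kinases, and CCNA2, cyclin A2, differed by -1.13 ± 0.19 and -1.10 ± 0.18 (limma adjusted p = 0.00153 and 0.00156). CCNE2, cyclin E2, did not pass (-1.24 ± 0.60, limma adjusted p = 0.314). The count of 8 fell to 5 without sgCON DMSO replicate 1, sgCON trametinib replicate 1 or YAPKO2 DMSO replicate 2. CCND1, cyclin D1, which carries growth factor signals to the cell cycle, fell in YAPKO2 (-0.51, limma adjusted p = 0.0012) and not by the test in sgCON (0.23, adjusted p = 0.23), a difference of -0.73 ± 0.14 (adjusted p = 0.0041). It was the only called gene of 10 measured D cyclins, their kinases and inhibitors, of which 2 were called without YAPKO2 trametinib replicate 2.

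Recombination, Fanconi and checkpoint genes gave 9 lower and 0 higher responses in YAPKO2 among 35 measured, against 3.03% and 1.8% of all genes. The median difference was -0.65. EXO1, an exonuclease of repair and recombination, stood at 15.6, 13.03 and 18.0 FPKM in YAPKO2 with trametinib and at 34.8, 36.4 and 38.1 with DMSO, against 58.1, 66.2 and 60.4 in sgCON with trametinib and 59.6, 61.4 and 56.8 with DMSO. It was lower in YAPKO2 than in sgCON already in DMSO, and its difference was -1.27 ± 0.17 (limma adjusted p = 0.000247). CHEK1, the kinase of the replication checkpoint, differed by -1.19 ± 0.16 (limma adjusted p = 0.000295), with all YAPKO2 trametinib libraries at or under 22.7 FPKM and all others at or over 42.1. FANCI, of the Fanconi complex that acts on DNA crosslinks, differed by -1.09 ± 0.25 (limma adjusted p = 0.015). Over the whole list, YAPKO2 was below sgCON in DMSO as well, with a median of -0.43, and 8 members were called lower there (13.1% of all genes).

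Replication-dependent histone genes, which are near-identical copies whose reads cannot always be assigned, had the lowest list median of these groups (-1.10). Of 18 measured, 6 were lower and 0 higher in YAPKO2, against 3.03% and 1.8% of all genes. HIST2H3D, a histone H3 gene, stood at 1110, 619 and 491 FPKM in YAPKO2 with trametinib and at 1731, 2270 and 1626 with DMSO, against 851, 774 and 804 in sgCON with trametinib and 796, 649 and 743 with DMSO. It was high in YAPKO2 with DMSO, its trametinib libraries overlapped both sgCON groups, and its difference was -1.57 ± 0.35 (limma adjusted p = 0.0147). The list stood at a median of 0.64 above sgCON in DMSO and its level in YAPKO2 with trametinib spread over 0.30, 0.07 and -0.71. The count of 6 was 1 without sgCON DMSO replicate 1 or 2, sgCON trametinib replicate 1 or 3 or YAPKO2 DMSO replicate 2, 2 without sgCON DMSO replicate 3, 3 without sgCON trametinib replicate 2, 9 without YAPKO2 trametinib replicate 1, and 0 without replicate 2 of both YAPKO2 groups.

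ERK pathway output fell with trametinib in both lines. Of 20 measured genes, 13 fell in YAPKO2 and 11 in sgCON, 0 rose in either, against 11.5% and 2.94% of all genes that fell. The median response was -1.05 in YAPKO2 and -0.79 in sgCON. The response was lower in YAPKO2 for 6 genes (ETV4, ETV5, EPHA2, SPRED2, PLAUR and CCND1) and higher for 4 (IER3, SPRY1, PHLDA1 and SPRY2), against 3.03% and 1.8% of all genes, with a list median difference of -0.29. ETV4 stood at 0.530, 0.396 and 0.188 FPKM in YAPKO2 with trametinib and at 33.4, 40.5 and 30.1 with DMSO, against 1.54, 1.72 and 2.21 in sgCON with trametinib and 41.0, 38.8 and 33.6 with DMSO. The DMSO levels of both lines overlapped, and the YAPKO2 trametinib libraries lay below those of sgCON. The difference was -1.30 ± 0.27 (limma adjusted p = 0.00828), on top of a fall of -4.05 in sgCON.

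ETV5 differed by -1.23 ± 0.34 (limma adjusted p = 0.0436), but that call was lost with 10 of the 12 libraries left out in turn (adjusted p up to 0.119 without sgCON trametinib replicate 2), and also lost without the filter (0.0856), with a pseudocount of 1 (0.108), with only the 4 groups in the fit (0.0887) and under a replicate block (0.0739). EPHA2, an ephrin receptor that ERK induces, stood at 1.14, 0.902 and 0.763 FPKM in YAPKO2 with trametinib and at 3.65, 4.68 and 4.68 with DMSO, against 14.5, 13.01 and 16.5 in sgCON with trametinib and 22.7, 22.1 and 20.6 with DMSO. It was lower in every YAPKO2 library than in every sgCON library, and it differed in response by -1.19 ± 0.28 (limma adjusted p = 0.0185), a call lost with 2 of the 12 libraries left out in turn (adjusted p up to 0.0539 without sgCON trametinib replicate 3). IER3, an early response gene, went the other way (1.196 ± 0.33, limma adjusted p = 0.043), a call lost with 9 of the 12 libraries left out in turn (adjusted p up to 0.109 without sgCON trametinib replicate 2). It fell in sgCON (-1.53) and stood at a mean of 0.665 ± 0.279 FPKM in YAPKO2 with DMSO (SD, n = 3), where the lowest response the scale allows is -1.22. DUSP6, the ERK phosphatase, had responses of -2.87 in YAPKO2 and -2.998 in sgCON and no called difference (0.13 ± 0.27, limma adjusted p = 0.889). The count of higher members was 1 without sgCON DMSO replicate 1, 2 or 3, sgCON trametinib replicate 1 or 2 or YAPKO2 DMSO replicate 1, 2 without 5 further libraries in turn, and 3 without YAPKO2 trametinib replicate 3. That of lower members was 4 without sgCON trametinib replicate 3 or YAPKO2 DMSO replicate 2 and 3 without replicate 2 of both YAPKO2 groups.

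Among 21 classical YAP-TEAD target genes, 1 had a lower response in YAPKO2 and 0 a higher one, near the share over all genes, and 2 were lower without YAPKO2 DMSO replicate 1 or YAPKO2 trametinib replicate 2 and 3 without YAPKO2 trametinib replicate 3. The called gene was AMOTL1, an angiomotin family member that binds YAP, at 19.2, 20.6 and 17.7 FPKM in YAPKO2 with trametinib and 27.99, 30.5 and 27.98 with DMSO, against 23.2, 24.2 and 23.4 in sgCON with trametinib and 23.2, 23.4 and 24.6 with DMSO (-0.57 ± 0.12, limma adjusted p = 0.0106). NUAK2, a kinase gene induced by YAP, differed by -0.90 ± 0.26 and did not pass (limma adjusted p = 0.057). WWTR1, which encodes the YAP paralogue TAZ, had an estimate of -0.76 ± 0.24 (limma adjusted p = 0.0906).

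Granin and neuropeptide genes had higher responses in YAPKO2. Of 9 measured neurosecretory genes 6 were called higher (SCG2, VGF, NPY, CHGA, CHGB and SCG3) and 0 lower, against 1.8% and 3.03% of all genes, with a median difference of 1.70. These 6 were of 2 kinds. SCG2, VGF and NPY fell with trametinib in sgCON and stood low in YAPKO2 with DMSO. CHGA, CHGB and SCG3 instead rose in YAPKO2 and stood near 0 in sgCON. The list has 20 entries, and those not measured did not pass the filter on level. Among the 12 libraries SCG3 reached the filter level of 1 FPKM only in YAPKO2 with trametinib, so its place in the count may depend on that group. With a filter at a mean of 1 FPKM over the 12 libraries, 5 of 8 genes were higher.

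SCG2, secretogranin, stood at 13.4, 10.4 and 20.8 FPKM in YAPKO2 with trametinib and at 17.7, 15.1 and 18.0 with DMSO, against 22.6, 25.1 and 21.04 in sgCON with trametinib and 134, 143 and 135 with DMSO. Only sgCON with DMSO was high, and the YAPKO2 groups overlapped. The response was -0.23 in YAPKO2 and -2.56 in sgCON, and the difference 2.33 ± 0.25 (limma adjusted p = 4.71e-05). VGF, a neuropeptide precursor, stood at 0.736, 0.902 and 0.556 FPKM in YAPKO2 with trametinib and at 0.760, 0.759 and 0.770 with DMSO, against 0.915, 0.343 and 0.576 in sgCON with trametinib and 5.91, 4.21 and 5.39 with DMSO. Its difference was 2.33 ± 0.30 (limma adjusted p = 0.000166), but the lowest response its YAPKO2 DMSO level allows is -1.34, above the -2.37 seen in sgCON. NPY, neuropeptide Y, fell in both lines, with responses of -1.22 in YAPKO2 and -2.91 in sgCON, with DMSO means of 1.41 ± 0.531 and 37.3 ± 2.94 FPKM (SD, n = 3 each) and a difference of 1.70 ± 0.29 (limma adjusted p = 0.00168). As for VGF, the lowest response that the YAPKO2 DMSO level of NPY allows lies above the fall seen in sgCON.

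CHGA, chromogranin A, stood at 19.5, 25.3 and 19.2 FPKM in YAPKO2 with trametinib and at 0.770, 1.34 and 1.16 with DMSO, against 0.772, 0.665 and 0.221 in sgCON with trametinib and 0.0982, 0 and 0.0498 with DMSO. Its response was 3.79 in YAPKO2 and 0.90 in sgCON, and the difference 2.89 ± 0.35 (limma adjusted p = 0.000111). With a pseudocount of 0.1 that difference was 2.13 and not called (limma adjusted p = 0.0922). SCG3, another secretogranin, stood at 3.01, 1.81 and 4.96 FPKM in YAPKO2 with trametinib, and every library of the other 3 groups was at or under 0.323 FPKM (1.70 ± 0.36, limma adjusted p = 0.0106). CHGB, chromogranin B, differed by 1.58 ± 0.38 (limma adjusted p = 0.0215), with a mean of 4.96 ± 1.66 FPKM in YAPKO2 with trametinib (SD, n = 3), and it was listed at 0 in sgCON with DMSO. With a pseudocount of 0.1 the list held 2 higher calls in place of 6. Of the processing enzymes CPE and PAM, neither passed the test (-0.21 ± 0.22 and 0.19 ± 0.12).

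**Figure D3:**
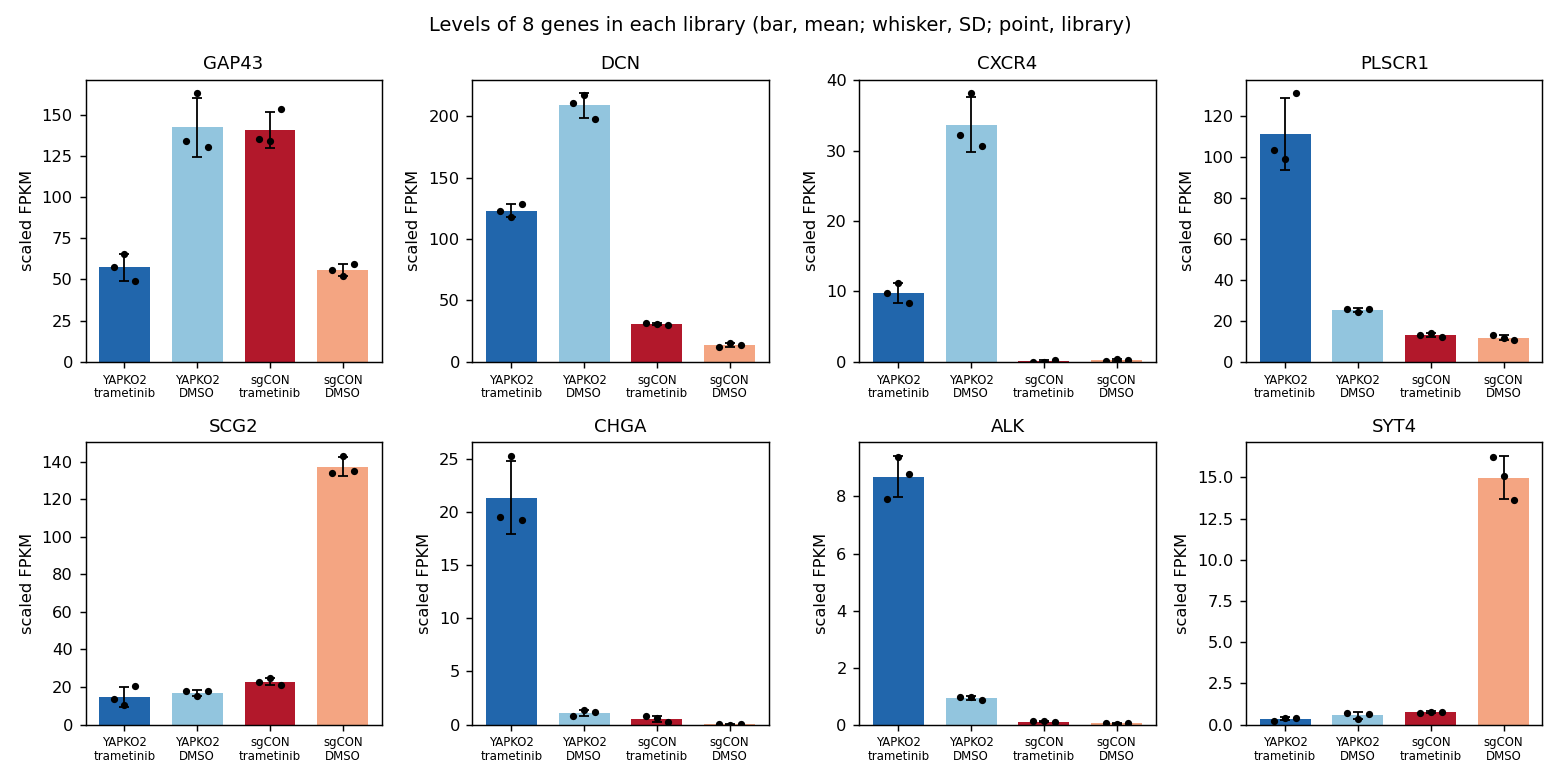
Scaled FPKM of 8 genes in the 12 libraries (points), with group means (bars) and SD (whiskers, n = 3), the 4 groups running along each x axis. GAP43, DCN and CXCR4 fell in YAPKO2, SCG2 and SYT4 are high in sgCON with DMSO alone, and PLSCR1, CHGA and ALK are high in YAPKO2 with trametinib.

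Of 20 synaptic vesicle genes, 3 had a higher response in YAPKO2 (SYT4, RAB3C and SYN2) and 0 a lower one. The shares over all genes were 1.8% and 3.03%. The count of 3 was 1 without sgCON DMSO replicate 2 or sgCON trametinib replicate 1 or 2, and 5 without YAPKO2 trametinib replicate 3. SYT4, a synaptotagmin of dense-core vesicles, had the highest difference among named genes with both DMSO means at 0.5 FPKM or more (3.35 ± 0.40, limma adjusted p = 0.000101). It stood at 0.245, 0.406 and 0.424 FPKM in YAPKO2 with trametinib and at 0.700, 0.318 and 0.655 with DMSO, against 0.677, 0.773 and 0.777 in sgCON with trametinib and 16.2, 15.1 and 13.6 with DMSO. Its YAPKO2 level in DMSO lies just over the floor level, and a response below -1.08 could not have been measured there, while that of sgCON was -3.64. RAB3C, a vesicle GTPase, rose in YAPKO2 (1.29, limma adjusted p = 0.0209) and differed by 2.25 ± 0.53 (adjusted p = 0.019), a call lost with 4 of the 12 libraries left out in turn (adjusted p up to 0.0577 without sgCON DMSO replicate 2). PTPRN, a membrane protein of dense-core vesicles, and NTS, neurotensin, differed by 2.60 ± 0.40 and 1.82 ± 0.32 (limma adjusted p = 0.000783 and 0.00254). Both fell in sgCON, with responses of -1.64 and -1.60, below the lowest responses YAPKO2 could show (-0.66 and -1.14).

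Receptor tyrosine kinase genes held 5 higher responses, ALK, NGFR, PDGFRA and ERBB2 among them, and 1 lower (FGFR2) among 27 measured. Over all genes 1.8% were higher and 3.03% lower. NGFR is a neurotrophin receptor without a kinase. ALK, a kinase that is mutated in some neuroblastomas, stood at 7.93, 9.38 and 8.79 FPKM in YAPKO2 with trametinib and at 0.980, 0.975 and 0.863 with DMSO, against 0.124, 0.117 and 0.0768 in sgCON with trametinib and 0.0491, 0.0202 and 0.0498 with DMSO. It rose in YAPKO2 (2.67, limma adjusted p = 7.33e-09), while all 6 sgCON libraries were at or under 0.124 FPKM, and the difference was 2.51 ± 0.23 (adjusted p = 1.13e-05). NGFR, the low-affinity neurotrophin receptor, stood at 17.3, 20.3 and 11.3 FPKM in YAPKO2 with trametinib and at 3.75, 3.86 and 3.92 with DMSO, against 0.114, 0.215 and 0.154 in sgCON with trametinib and 0.0883, 0.141 and 0.0399 with DMSO. It differed by 1.75 ± 0.29 (limma adjusted p = 0.00156) and is also in the Schwann cell marker list, whose defining markers SOX10 and CDH19 reached at most 0.3 FPKM and 0. PDGFRA and ERBB2 differed by 1.29 ± 0.35 and 1.12 ± 0.29 (limma adjusted p = 0.043 and 0.0326), calls lost with 10 and 6 of the 12 libraries left out in turn, up to an adjusted p of 0.115 without sgCON DMSO replicate 3 and 0.0899 without sgCON DMSO replicate 2. All 3 YAPKO2 trametinib libraries lay above the other 9 for 10 of the 27 genes, against 8.04% of all genes. The count of 5 was 2 to 4 with each library left out, 2 without sgCON DMSO replicate 2, and 3 without sgCON DMSO replicate 1, any sgCON trametinib library, YAPKO2 DMSO replicate 1 or YAPKO2 trametinib replicate 1.

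Of 24 measured genes of the adrenergic state, 14 rose and 1 fell in YAPKO2, against 8.59% and 11.5% of all genes, and 8 rose and 1 fell in sgCON, against 2.28% and 2.94%. The response was higher in YAPKO2 for 3 and lower for 1, against 1.8% and 3.03% of all genes. With only the 4 groups in the fit these counts were 1 and 0, and with a pseudocount of 0.1 they were 2 and 1. With each library left out the lower count was 0 to 2, and it was 0 without sgCON DMSO replicate 3, sgCON trametinib replicate 1 or 2 or YAPKO2 DMSO replicate 2 and 2 without YAPKO2 trametinib replicate 2. DBH, which makes noradrenaline, stood at 4.12, 6.84 and 3.17 FPKM in YAPKO2 with trametinib and at 0.450, 0.677 and 0.562 with DMSO, against 0.591, 0.166 and 0.345 in sgCON with trametinib and 0.0294, 0 and 0.0498 with DMSO (1.54 ± 0.33, limma adjusted p = 0.0102). The sgCON DMSO level of DBH lies under 0.5 FPKM, where the 0.5 added before the log2 damps a rise, so its difference depends on that constant. TBX2, a core transcription factor of that state, rose in YAPKO2 (0.69, limma adjusted p = 0.00234) and differed by 0.98 ± 0.20 (adjusted p = 0.00851). Of channel and receptor genes, CHRNB2, a nicotinic receptor subunit, stood at 5.08, 7.24 and 4.49 FPKM in YAPKO2 with trametinib and under 0.5 in all other libraries (2.42 ± 0.27, limma adjusted p = 6.68e-05). SCN3B, a sodium channel subunit, rose in YAPKO2 (2.06, limma adjusted p = 2.2e-07; difference 1.81 ± 0.24, adjusted p = 0.000228) and was listed at 0 in sgCON with DMSO.

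GAP43, a growth cone protein, had the lowest difference of the 487 lower genes. It stood at 57.8, 65.3 and 48.9 FPKM in YAPKO2 with trametinib and at 134, 163 and 130.2 with DMSO, against 135, 134 and 154 in sgCON with trametinib and 55.8, 52.0 and 59.3 with DMSO. The groups moved in opposite directions, since YAPKO2 with trametinib overlapped sgCON with DMSO, and YAPKO2 with DMSO overlapped sgCON with trametinib. GAP43 fell in YAPKO2 (-1.31, limma adjusted p = 1.01e-06) and rose in sgCON (1.33, adjusted p = 1.73e-06), a difference of -2.64 ± 0.17 (adjusted p = 2.49e-07). The 12 Schwann cell markers, which include GAP43 itself, summed to 69.2 to 95.3 FPKM in YAPKO2 with trametinib and 144 to 179 with DMSO, against 143 to 164 in sgCON with trametinib and 63.3 to 68.7 with DMSO, and the defining markers SOX10 and CDH19 were at or near 0. DCN, the matrix proteoglycan decorin, stood at 123, 118 and 129 FPKM in YAPKO2 with trametinib and at 211, 218 and 198 with DMSO, against 31.3, 30.5 and 30.0 in sgCON with trametinib and 11.98, 15.8 and 13.9 with DMSO. All 4 groups were apart, with YAPKO2 higher at both treatments, and DCN fell in YAPKO2 and rose in sgCON (difference -1.88 ± 0.22, limma adjusted p = 9.44e-05). FBP1, a gluconeogenic enzyme, fell in YAPKO2 (-1.30) and rose in sgCON (0.97), with a difference of -2.27 ± 0.33 (limma adjusted p = 0.00048).

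Other genes fell with trametinib in YAPKO2 and gave no call in sgCON. PHLPP1, a phosphatase that acts on AKT, stood at 1.27, 1.70 and 1.29 FPKM in YAPKO2 with trametinib and at 4.95, 4.21 and 4.50 with DMSO, against 4.46, 4.98 and 3.83 in sgCON with trametinib and 3.72, 3.55 and 4.07 with DMSO (-1.60 ± 0.21, limma adjusted p = 0.000247). The YAPKO2 trametinib libraries alone were low. ITM2A, an integral membrane protein, ADAMTS1, a secreted protease, KISS1R, the kisspeptin receptor, FAM105A and PDK1, an inhibitor of pyruvate dehydrogenase, differed by -2.29 ± 0.34, -1.57 ± 0.31, -1.62 ± 0.29, -1.53 ± 0.25 and -1.51 ± 0.30 (limma adjusted p = 0.000634, 0.00613, 0.00275, 0.00137 and 0.0068). FRMD3, a FERM domain protein, differed by -1.54 ± 0.34 (limma adjusted p = 0.0123; 0.0529 with only the 4 groups in the fit). SHC3, a neuronal adaptor of receptor kinases, fell in both lines, with responses of -2.51 in YAPKO2 and -0.98 in sgCON (difference -1.53 ± 0.22, limma adjusted p = 0.000422).

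Among genes that rose in YAPKO2, PLSCR1, an interferon-inducible phospholipid scramblase, stood at 103, 98.6 and 131 FPKM with trametinib and at 25.6, 24.4 and 25.8 with DMSO, against 12.9, 14.1 and 12.2 in sgCON with trametinib and 13.1, 11.51 and 10.7 with DMSO. The sgCON groups overlapped, and the YAPKO2 trametinib libraries were the highest 3 of the 12 (difference 1.96 ± 0.19, limma adjusted p = 2.69e-05). Its family member PLSCR5 stood at 18.1, 19.6 and 23.5 FPKM in YAPKO2 with trametinib and at 1.88, 1.53 and 1.18 with DMSO, against 3.67, 3.45 and 3.33 in sgCON with trametinib and 1.44, 1.24 and 1.24 with DMSO. PLSCR5 rose in both lines, further in YAPKO2 (2.23 ± 0.26, limma adjusted p = 9.27e-05), and so did RUNDC3A, a RUN domain protein (3.26 in YAPKO2 and 1.13 in sgCON, difference 2.13 ± 0.33, adjusted p = 0.00087). GRIK2, a kainate-type glutamate receptor subunit, SCUBE1, a secreted EGF-repeat protein, PTPRH, a receptor phosphatase, and GGT5, a gamma-glutamyltransferase, rose in YAPKO2, with responses of 1.74, 2.13, 1.32 and 2.37, with differences of 1.96 ± 0.38, 1.87 ± 0.37, 1.81 ± 0.32 and 2.43 ± 0.34. Their limma adjusted p for the difference was 0.00541, 0.00596, 0.00256 and 0.000337. MGP, an inhibitor of matrix calcification, and FANK1, an ankyrin repeat protein, rose in YAPKO2 and fell in sgCON (differences 3.07 ± 0.49 and 1.77 ± 0.35, limma adjusted p = 0.00114 and 0.00683).

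Matrix and adhesion genes split, with 4 of 48 measured higher (POSTN, TGFBI, COL6A2 and SPARC), against 1.8% of all genes. A further 5 were lower (DCN, SDC1, COL1A2, FN1 and FBN2), against 3.03% of all genes. With each library left out there were 1 to 4 higher and 3 to 7 lower, and with only the 4 groups in the fit 1 and 3. The higher count was 1 without sgCON DMSO replicate 1, 2 or 3, sgCON trametinib replicate 1 or 2 or YAPKO2 DMSO replicate 3, and 2 without YAPKO2 DMSO replicate 2 or YAPKO2 trametinib replicate 1. The lower count was 3 without sgCON DMSO replicate 2 or 3, sgCON trametinib replicate 1, YAPKO2 DMSO replicate 1 or 3 or YAPKO2 trametinib replicate 1. The call of TGFBI was lost with 11 of the 12 libraries left out in turn (limma adjusted p up to 0.126) and that of COL1A2 with 7 (up to 0.0892). POSTN, the matricellular protein periostin, fell in sgCON (-2.014, limma adjusted p = 0.00134) and stood at 1.93, 0.780 and 1.03 FPKM in YAPKO2 with DMSO, so that its response there could not pass below -1.80 (difference 1.80 ± 0.48, adjusted p = 0.038), a call lost with 9 of the 12 libraries left out in turn (adjusted p up to 0.107 without sgCON trametinib replicate 1). LUM, lumican, varied too widely to be called, at 61.5, 17.8 and 161 FPKM in YAPKO2 with trametinib and 339, 103 and 200.4 with DMSO, against 280.1, 326 and 402 in sgCON with trametinib and 373, 388 and 292 with DMSO (-1.69 ± 0.91, limma adjusted p = 0.377). DCN, LUM and COL1A2 are also fibroblast markers. The 11 markers of that list summed to 220 to 356 FPKM in YAPKO2 with trametinib and 403 to 631 with DMSO, against 484 to 612 in sgCON with trametinib and 463 to 543 with DMSO. FAP was listed at 0 in all 12 libraries, 1 marker was called higher and 2 lower (0 to 1 and 1 to 3 with each library left out), and the part of such cells in the matrix results was not tested.

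Among 20 measured Notch pathway genes, 4 had lower responses in YAPKO2, HES1, HES4 and NRARP among them, against 3.03% of all genes. A higher response came in 1 gene (DLL1), against 1.8% of all genes. The lower count was 2 without sgCON DMSO replicate 3, sgCON trametinib replicate 1 or YAPKO2 DMSO replicate 2, and the higher count was 2 without YAPKO2 trametinib replicate 3 and 0 with a pseudocount of 0.1. The call of HES4 was lost with 5 of the 12 libraries left out in turn (limma adjusted p up to 0.0754 without YAPKO2 DMSO replicate 2). HES1, a repressor that Notch induces, stood at 1.77, 2.19 and 1.55 FPKM in YAPKO2 with trametinib and at 3.19, 3.41 and 3.93 with DMSO, against 5.20, 5.36 and 5.98 in sgCON with trametinib and 4.87, 4.54 and 3.83 with DMSO (-1.08 ± 0.22, limma adjusted p = 0.00859). NRARP, a Notch feedback regulator, differed by -0.85 ± 0.16 and DLL1, a Notch ligand, by 1.47 ± 0.25 (limma adjusted p = 0.0037 and 0.00225). Of 29 glycolysis and hypoxia genes, 4 were lower (PDK1, LDHA, HK2 and PGAM1), against 3.03% of all genes. Higher ones numbered 2 (ADM and NDRG1), against 1.8%. The higher count was 1 without sgCON DMSO replicate 2, sgCON trametinib replicate 2 or YAPKO2 DMSO replicate 1, and with a pseudocount of 0.1. LDHA, lactate dehydrogenase, stood at 216, 274 and 236 FPKM in YAPKO2 with trametinib and at 549.5, 667 and 614 with DMSO, against 359.9, 354 and 354 in sgCON with trametinib and 441, 445 and 467 with DMSO, and differed by -0.995 ± 0.14 (limma adjusted p = 0.000365). PSAT1, of serine synthesis, stood at 16.8, 16.7 and 14.6 FPKM in YAPKO2 with trametinib and at 37.0, 41.1 and 42.5 with DMSO, against 40.9, 42.5 and 42.2 in sgCON with trametinib and 46.6, 47.7 and 45.5 with DMSO, with the YAPKO2 trametinib libraries apart from all others (-1.15 ± 0.11, limma adjusted p = 2.69e-05).

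**Figure D4:**
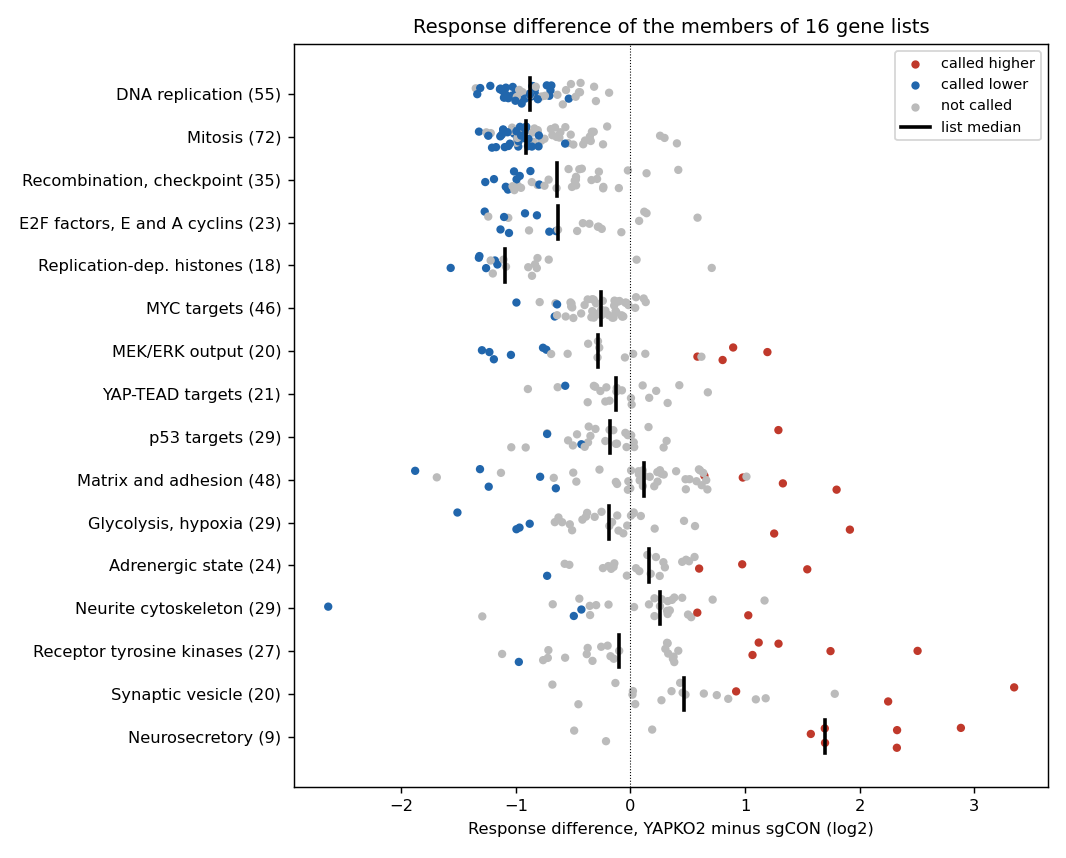
Response difference of each measured member of 16 gene lists (points; x axis, log2, YAPKO2 minus sgCON; number measured in brackets), red where called higher, blue where called lower and grey where not called, with the list median as a bar. The replication list lies wholly below 0 and most of the mitosis list does, whereas 6 of the 9 neurosecretory genes are called above 0.

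Several lists gave few or no calls, and their counts varied with the setting. Over all genes, the GC correction gave 1720 calls and library weights 3972. Of 46 MYC target genes 3 were lower and 0 higher (median difference -0.26), against 3.03% and 1.8% of all genes. The called genes besides LDHA were NOP56 and DKC1, which act in ribosome biogenesis and telomerase RNA processing. The count of 3 was 9 without YAPKO2 trametinib replicate 3, 16 with a GC correction, 12 with that correction and a replicate block, and 20 with library weights. MYCN fell in both lines, with responses of -1.39 in YAPKO2 and -0.88 in sgCON, and its difference did not pass (-0.51 ± 0.17, limma adjusted p = 0.115). Of 24 RAS pathway genes, 14 BCL2 family genes, 58 cytosolic ribosomal protein genes and 13 mitochondrially encoded genes, 0 were called in either direction by limma (1 RAS pathway gene lower and 1 BCL2 gene higher without YAPKO2 trametinib replicate 2), with medians of -0.01, -0.06, 0.16 and 0.23. Within those lists NF1, a RAS inhibitor, had an estimate of 0.46 ± 0.23 (limma adjusted p = 0.34) and BMF, a pro-apoptotic BCL2 member, of 0.86 ± 0.28 (adjusted p = 0.0969). Of 29 p53 target genes 1 was higher (TP53INP1) and 2 were lower (AEN and TNFRSF10B), against 1.8% and 3.03% of all genes. The levels themselves differed between the lines. In YAPKO2 27 of the 29 were lower than in sgCON with DMSO (median -0.93), against 13.1% of all genes. With trametinib 28 were lower (median -1.06), against 18.7% of all genes. The call of TP53INP1 was lost with 10 of the 12 libraries left out in turn (limma adjusted p up to 0.13 without YAPKO2 DMSO replicate 2). The lower p53 count was 0 with each of the 6 sgCON and 3 YAPKO2 DMSO libraries left out in turn, under a replicate block and with only the 4 groups in the fit, 1 without YAPKO2 trametinib replicate 1 or 3, and 6 with the GC correction and 10 with library weights.

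Among stress, lipid and degradation genes the called members were few. Of 28 ATF4 and amino acid response genes, 2 were lower (PSAT1 and MTHFD2) and 0 higher, against 3.03% and 1.8% of all genes. Set against the same shares, the 30 cholesterol synthesis genes held 2 lower and 0 higher. The cholesterol count was 1 with 7 of the 12 libraries left out in turn. With the GC correction there were 6 lower ATF4 and 5 lower cholesterol genes. Of 32 lysosome and autophagy genes 1 was higher and 0 lower, against 1.8% and 3.03% of all genes. Without YAPKO2 trametinib replicate 3, 4 were higher. The gene called with all libraries, WIPI1, which binds phosphoinositides on forming autophagosomes, stood at 20.8, 23.02 and 18.4 FPKM in YAPKO2 with trametinib and at 7.29, 6.71 and 10.47 with DMSO, against 15.9, 12.7 and 13.5 in sgCON with trametinib and 19.1, 18.7 and 18.4 with DMSO (1.73 ± 0.23, limma adjusted p = 0.000287). It was low in YAPKO2 with DMSO and reached the sgCON DMSO level with trametinib.

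Interferon response genes held 2 higher and 0 lower members among 21, against 1.8% and 3.03% of all genes. STAT2, which carries the type I interferon signal, stood at 22.0, 23.8 and 18.5 FPKM in YAPKO2 with trametinib and at 8.89, 8.23 and 10.0 with DMSO, against 10.4, 10.3 and 9.99 in sgCON with trametinib and 10.6, 8.44 and 9.55 with DMSO. The YAPKO2 trametinib libraries were the highest 3 and the other groups overlapped (1.09 ± 0.17, limma adjusted p = 0.000783). HLA-E, a class I histocompatibility gene, differed by 1.06 ± 0.23 (limma adjusted p = 0.0111), and IFI44L, an interferon-induced gene, did not pass (0.94 ± 0.38, adjusted p = 0.202). Of 29 axon guidance genes 3 were higher and 0 lower, against 1.8% and 3.03% of all genes. A filter at a mean of 1 FPKM over the 12 libraries left 24, of which 1 was higher. Among the 3 were EFNA1, a membrane-bound ligand of Eph receptors (1.61 ± 0.34, limma adjusted p = 0.00972), and SEMA3C, a semaphorin (1.09 ± 0.29, limma adjusted p = 0.0377). SEMA3C reached at most 0.103 FPKM in any YAPKO2 library. The call of SEMA3C was lost with 7 of the 12 libraries left out in turn (adjusted p up to 0.113 without sgCON DMSO replicate 1). Of the neurite genes, L1CAM, a neural adhesion molecule, rose in YAPKO2 (0.99, limma adjusted p = 0.0021) and differed by 1.03 ± 0.29 (adjusted p = 0.0452), a call lost with 10 of the 12 libraries left out in turn (adjusted p up to 0.118 without sgCON trametinib replicate 2).

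The other knockout line, YAPKO1, shares the sgCON libraries with this comparison, so its values are set beside those of YAPKO2 only as numbers. Its response differed from that of sgCON in 40 genes (0.249%), and in 12 without sgCON DMSO replicate 3. The median difference of the replication list was -0.30 in YAPKO1 and -0.88 in YAPKO2, and that of the mitosis list -0.34 and -0.91. In YAPKO1, 0 replication genes and 1 mitotic gene were called lower (0.0497% of all genes). GAP43 had a difference of -0.21 in YAPKO1 (limma adjusted p = 0.939), SCG2 of 0.85 (adjusted p = 0.253), ALK of 1.17 (adjusted p = 0.0375) and PLSCR1 of 1.04 (adjusted p = 0.0297). DCN had -2.54 in YAPKO1 (limma adjusted p = 1.2e-05). Set directly against YAPKO1, the response of YAPKO2 differed in 130 genes (0.808%), 95 lower and 35 higher. Of the 55 replication genes 15 were lower in YAPKO2 than in YAPKO1 (0.59% of all genes) and 0 higher, with a median of -0.63, and of the 72 mitotic genes 6 were lower and 0 higher. By gene, GAP43 differed between the knockout lines by -2.43 (limma adjusted p = 9.15e-07), SYT4 by 2.90 (adjusted p = 0.00292), CHGA by 2.20 (adjusted p = 0.00728) and ALK by 1.34 (adjusted p = 0.00955), whereas DCN did not pass (0.66, adjusted p = 0.257). The count of 130 was 58, 71 and 72 without YAPKO2 DMSO replicate 2, 3 and 1 and 83 without YAPKO2 trametinib replicate 1.

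Low DMSO levels set a floor under part of the differences. On the scale used, log2(FPKM + 0.5), a gene whose DMSO mean is low cannot fall below log2(0.5 / (mean + 0.5)), so its response is bounded while that of the other line may not be. Of the 290 higher genes, 60 had a DMSO mean under 0.5 FPKM in at least 1 line, 46 of them in YAPKO2. Over all 16090 genes tested, 1492 had such a mean in at least 1 line. Of the 69 higher genes that fell in sgCON, 22 had a YAPKO2 DMSO mean under 0.5, and for 31 the fall in sgCON was below the lowest response YAPKO2 could take. Of the 220 higher genes that rose in YAPKO2, 31 had an sgCON DMSO mean under 0.5. The added 0.5 damps a rise from such a level, so a rise in sgCON can be understated and the difference raised. ALK, NGFR, CHRNB2, SCN3B and DBH, described above, had such sgCON DMSO levels. With a pseudocount of 0.1 in place of 0.5, 239 genes were called higher and 477 lower by limma. Among the 487 lower genes 9 had a DMSO mean under 0.5, and for 8 of the 448 that fell in YAPKO2 the fall was below the lowest response sgCON could take. Just under the level of 0.5 lay ENSG00000232694, with a YAPKO2 DMSO mean of 0.498 FPKM and a difference of 1.68, and just over it SYT4, with 0.558.

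DOCK2, an exchange factor for the GTPase RAC, shows the limit: it stood at 0.0785, 0.0694 and 0.452 FPKM in YAPKO2 with trametinib and at 0, 0.493 and 0.156 with DMSO, against 0.658, 0.137 and 0.0576 in sgCON with trametinib and 4.59, 2.42 and 4.17 with DMSO. Only sgCON with DMSO was above 1, the lowest response YAPKO2 could take was -0.52, and the difference was 2.45 ± 0.44 (limma adjusted p = 0.00279). ANXA1, the phospholipid-binding protein annexin A1, fell in sgCON with a response of -2.16 and a DMSO mean of 42.5 ± 2.08 FPKM (SD, n = 3), while YAPKO2 held at most 0.19 FPKM in any library and could not respond below -0.31 (difference 2.00 ± 0.42, limma adjusted p = 0.00925). On the lower side, CXCR4, a chemokine receptor, stood at 9.81, 11.2 and 8.34 FPKM in YAPKO2 with trametinib and at 32.2, 38.2 and 30.7 with DMSO, against 0, 0 and 0.269 in sgCON with trametinib and 0.196, 0.403 and 0.299 with DMSO. It fell in YAPKO2 (-1.74, limma adjusted p = 5.76e-06), and its difference of -1.28 ± 0.27 (adjusted p = 0.00958) became -0.44 (adjusted p = 0.782) with a pseudocount of 0.1, since sgCON could not respond below -0.68 on the scale used. TLL2, a metalloprotease, AFM, afamin, and ARSE, an arylsulfatase, had differences of -2.12 ± 0.31, -2.10 ± 0.45 and -1.37 ± 0.30 (limma adjusted p = 0.000542, 0.0111 and 0.0117), and those of AFM and ARSE were not called with only the 4 groups in the fit (0.0619 and 0.0613).

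**Figure D5:**
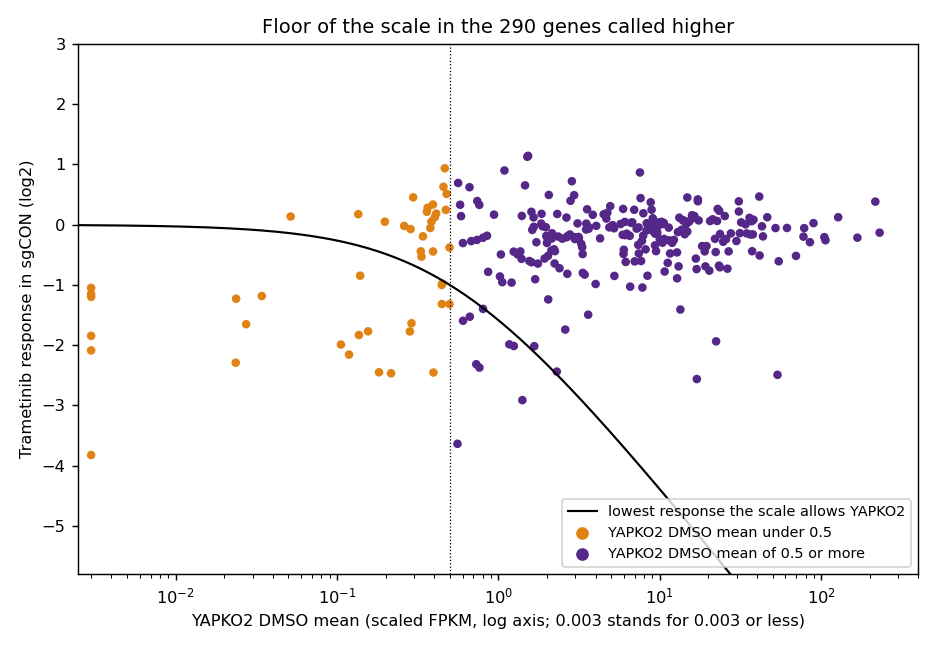
Trametinib response in sgCON (y axis, log2) against the YAPKO2 DMSO mean (x axis, scaled FPKM, log axis) for the 290 genes called higher, in orange below a mean of 0.5 and in purple at 0.5 or more. The curve is the lowest response the scale allows YAPKO2 at that mean, and for 31 genes that fell in sgCON the point lies below it.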

How the data were processed

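Libraries were made with a stranded total RNA kit with ribosomal RNA removal, per the labels' protocols. STAR 2.4.2, RSEM 1.3.0 and the hg19 build are named in the submitters' processing notes, and the strand setting is not given in the sources used here. The authors deposited FPKM per gene, not counts, for 21 libraries, in a table and in a calibrated version of it that differs by 1 factor per library (0.927 to 1.07), which allowed gene symbols to be paired with IDs. Depth is known only in relative terms, and no counting interval was computed.

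FPKM were scaled by the median ratio to the geometric mean of each gene. Genes with at least 1 scaled FPKM in at least 3 libraries were kept, and a linear model of log2(FPKM + 0.5) with 1 mean per group (7 groups) was run in limma 3.58.1 (R 4.3.3), with a trended prior variance and 14 residual degrees of freedom. Tests were two-sided, with Benjamini-Hochberg adjustment over all 16090 genes tested and a threshold of 0.05. The fit was also run on simulated data with independent normal noise for each gene. Those data lack the GC trends seen within groups here, so that run cannot test the calls against such trends. GC content came from GENCODE 29 transcripts.

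The gene lists, the rules and the genes were chosen with earlier results of these data known, so neither direction nor membership is independent evidence. Named genes are YAP1, then the 12 highest and 12 lowest differences among protein-coding genes called with each library left out and with both DMSO means at 0.5 or more, the 6 highest and 6 lowest with a lower DMSO mean, and up to 4 genes of each list by size of difference. Genes with printed promoters, other list members given by name beyond that rule, and the MCM genes, NPY, CHGB, CPE and PAM, were chosen after their values were seen. Some genes that these rules chose are not reported here.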

Additional observations from a re-analysis of the deposited data

Results flagged for a closer look

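The response to trametinib differed between YAPKO2 and sgCON in 777 genes and between YAPKO2 and YAPKO1 in 130 genes, each by limma's test of the difference itself. The genes below are listed because that test passed for YAPKO2 against sgCON, and their values are the log2 differences of response. No explanation was weighed.

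The response was higher in YAPKO2 for SYT4 (3.35), MGP (3.07), SCG2 (2.33), VGF (2.33), PLSCR5 (2.23), RUNDC3A (2.13), GRIK2 (1.96), PLSCR1 (1.96), SCUBE1 (1.87), NTS (1.82), PTPRH (1.81) and FANK1 (1.77). It was lower for GAP43 (-2.64), ITM2A (-2.29), FBP1 (-2.27), DCN (-1.88), KISS1R (-1.62), PHLPP1 (-1.60), HIST2H3D (-1.57), ADAMTS1 (-1.57), FRMD3 (-1.54), SHC3 (-1.53), FAM105A (-1.53) and PDK1 (-1.51). Among genes with a DMSO mean under 0.5 FPKM in at least 1 line it was higher for CHGA (2.89), PTPRN (2.60), ALK (2.51), DOCK2 (2.45), GGT5 (2.43) and CHRNB2 (2.42), and lower for TLL2 (-2.12), AFM (-2.10), ARSE (-1.37) and CXCR4 (-1.28).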

How the results depend on the processing

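Among the 777 genes, 0 had the opposite sign under an alternative that tested them, and 36 were not tested with a stricter filter (a mean of 1 FPKM over the 12 libraries) and 21 with the GC correction, with or without the block. The count for YAPKO2 against sgCON was 443 with only the 4 groups in the fit (156 higher, 287 lower), 1720 with a GC correction (638 and 1082), 1526 with a GC correction and replicate block (553 and 973), 3972 with library weights (1835 and 2137) and 344 at 2-fold or more (167 and 177). The weights ran from 0.155 to 8.252. Other settings of scaling, filter, pseudocount and prior gave 639 to 810. With each library left out the count ran from 509 (without sgCON DMSO replicate 2) to 1160 (without YAPKO2 trametinib replicate 3), the higher genes from 177 to 498 and the lower from 323 to 662. Without replicate 2 of both YAPKO2 groups, an alternative chosen after seeing the data, it was 512 (170 and 342), with 2060 for the YAPKO2 response and 56 for YAPKO2 against YAPKO1.

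Library weights gave 8468 for the YAPKO2 response, 3088 for sgCON, 7742 for the lines in DMSO and 10409 in trametinib. For the sgCON response the GC correction gave 1632, and 1477 with the replicate block. For YAPKO1 against sgCON the count was 24 with a pseudocount of 0.1, 23 in the calibrated table, 19 with the replicate block, 166 with the GC correction, 114 with both and 705 with weights. For YAPKO2 against YAPKO1 it was 63 in the calibrated table, 76 with the replicate block, 389 with the GC correction, 308 with both and 1629 with weights. The causes were not tested. With each library left out the counts ran from 2271 to 4551 for the YAPKO2 response, 483 to 1154 for sgCON, 12 to 51 for YAPKO1 against sgCON, 58 to 173 for YAPKO2 against YAPKO1, 2575 to 5639 for the lines in DMSO and 4228 to 7931 in trametinib.

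Same-numbered libraries of different groups correlated at -0.095 to 0.361 and differently numbered ones at -0.394 to 0.328. These ranges overlap and rest on few libraries per group, so they cannot decide whether the numbers pair the samples. The replicate block left 576 calls, all among the 777 (215 higher, 361 lower). Low FPKM rest on few reads, and depth is unknown in absolute terms.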
